A study of Mus musculus with 12 samples.

Results

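Astrocyte transport and metabolism genes are described here as a group of 10 protein-coding genes that astrocytes of the mouse brain transcribe strongly: Slc1a2, Slc1a3, Glul, Aqp4, Gja1, Gjb6, Aldh1l1, Aldoc, S100b and Fgfr3. They were picked by gene symbol, and all 10 were found among the 54532 genes of the count table. The tissue was frontal cortex of 12 mice aged 9 months. APP/PS1/Hras-/- mice carried the APP/PS1 transgenes, which drive amyloid deposition in the brain, and lacked Hras, a small GTPase of the Ras family. APP/PS1 mice carried the same transgenes and no Hras deletion. Each genotype had 3 males and 3 females. Both genotypes carried the transgenes, so no value below compares amyloid with no amyloid, and no mouse without the transgenes is analysed here. The labels do not state the promoters of the transgenes, in which cells Hras was deleted or whether mice were littermates. Libraries were numbered within a group in the order of the samples, and the number pairs no mice. Each library is taken to be 1 mouse, and p-values measure the spread between these libraries.

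Astrocytes take up the glutamate that neurons release, mainly through the carriers GLT-1 (Slc1a2) and GLAST (Slc1a3), and turn it into glutamine with glutamine synthetase (Glul). Their endfeet on blood vessels carry the water channel aquaporin-4 (Aqp4), and gap junctions of connexin 43 (Gja1) and connexin 30 (Gjb6) join astrocytes into networks. Aldh1l1 encodes a folate enzyme, Aldoc the brain form of the glycolytic enzyme aldolase, S100b a calcium-binding protein and Fgfr3 a receptor for fibroblast growth factors. In brains with amyloid plaques, astrocytes near plaques become reactive, a state marked by Gfap.

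None of the 10 genes passed the test for a genotype difference in any comparison. Several of them went up and down together from library to library, Glul with Gjb6 most closely, and Aqp4 with Slc1a3. Over 12 libraries Glul and Gjb6 showed little relation to Aqp4 and Slc1a3. The promoter sequences of genes that moved together are shown first, so that the windows can be read beside the values. The windows run from 250 bases before to 50 bases after a start of the gene, 5′ to 3′ on the gene's strand, from RefSeq on GRCm38.p6. That start is not always the outermost. The windows of Slc1a2 and Aldh1l1, and the downstream window of Aldoc and of Fgfr3, lie inside the gene's span given below. For 9 of the 10 genes, 11 RefSeq windows were used. The window of Aqp4 is not shown. Capitals mark a TTGGCA motif (the core of sites for nuclear factor I, a family that drives astrocyte genes) or a TTCNNNGAA motif (the shape of STAT sites), searched on both strands.

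Glul, chr1:153899679-153899978, plus strand: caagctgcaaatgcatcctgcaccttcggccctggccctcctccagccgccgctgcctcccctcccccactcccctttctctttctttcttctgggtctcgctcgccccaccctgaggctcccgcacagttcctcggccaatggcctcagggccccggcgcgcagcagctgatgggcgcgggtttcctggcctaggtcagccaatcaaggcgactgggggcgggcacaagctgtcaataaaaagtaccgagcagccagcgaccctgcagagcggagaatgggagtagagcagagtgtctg

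Gjb6, chr14:57133562-57133861, minus strand: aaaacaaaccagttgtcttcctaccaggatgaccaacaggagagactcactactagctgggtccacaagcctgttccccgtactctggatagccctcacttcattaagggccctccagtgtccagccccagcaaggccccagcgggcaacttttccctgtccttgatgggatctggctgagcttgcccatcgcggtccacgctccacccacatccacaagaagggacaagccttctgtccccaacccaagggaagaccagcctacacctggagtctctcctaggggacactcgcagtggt

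Gja1, chr10:56377050-56377349, plus strand: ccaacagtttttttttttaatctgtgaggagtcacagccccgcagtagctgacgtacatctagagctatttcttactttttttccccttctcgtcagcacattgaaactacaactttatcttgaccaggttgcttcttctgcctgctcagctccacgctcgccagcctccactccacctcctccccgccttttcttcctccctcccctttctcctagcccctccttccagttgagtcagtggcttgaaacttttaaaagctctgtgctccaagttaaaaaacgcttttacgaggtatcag

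Slc1a3, chr15:8710758-8711057, minus strand: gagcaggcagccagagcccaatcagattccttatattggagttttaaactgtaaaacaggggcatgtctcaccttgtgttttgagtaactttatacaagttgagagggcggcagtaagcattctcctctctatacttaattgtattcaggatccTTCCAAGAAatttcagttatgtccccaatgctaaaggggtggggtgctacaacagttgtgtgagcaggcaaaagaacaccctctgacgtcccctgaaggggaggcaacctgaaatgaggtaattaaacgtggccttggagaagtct

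S100b, chr10:76253586-76253885, plus strand: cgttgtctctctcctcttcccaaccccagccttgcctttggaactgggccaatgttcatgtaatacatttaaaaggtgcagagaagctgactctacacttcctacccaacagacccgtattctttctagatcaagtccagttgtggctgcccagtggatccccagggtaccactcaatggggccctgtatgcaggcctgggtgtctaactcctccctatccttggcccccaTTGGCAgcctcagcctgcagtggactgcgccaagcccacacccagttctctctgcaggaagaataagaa

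None of the motifs searched contains another. TTGGCA lay in 2 of the 11 windows, those of S100b and 1 of the windows of Aldoc, against 14.1% of 32851 RefSeq windows of the same length. TTCNNNGAA lay in 2 windows, those of Slc1a3 and the other Aldoc window, against 8.3% of all windows. AACAATG, a motif of SOX9, a transcription factor of astrocytes, lay in 0 of 11, against 3.78% of all. Glul, Gjb6 and Gja1, the 3 genes whose levels followed each other most closely over 10 of the libraries, held none of these letters in their windows. The windows of Slc1a2, Aldh1l1 and Fgfr3 held none either, so the lack is not particular to those 3 genes. The Glul window was 64.3% G or C, the Gjb6 window 57.3%, the Gja1 window 47.7%, the S100b window 53.7% and the Slc1a3 window 45.3%.

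Total counts ran from 13984692 to 20174131 per library. Levels are in CPM (library-scaled counts), scaled with TMM factors; per-length levels divide CPM by kilobases of exon. Hras, the deleted gene, lay between 19.4 and 23.4 CPM in the APP/PS1/Hras-/- libraries and between 73.7 and 102 CPM in the APP/PS1 libraries, which goes with the labels. Of the 17307 genes tested, 3 passed an adjusted p of 0.05 for genotype across sexes. Libraries of APP/PS1/Hras-/- male 1 and APP/PS1 female 2 stood apart from the other 10 on the first principal component (scores 39.5 and 46.8, with no other above 18.0). Markers of tissue next to the cortex were uneven: the summed level of 10 choroid plexus markers was 182 CPM in APP/PS1/Hras-/- male 1, 4771 CPM in APP/PS1 female 2 and 175 to 1061 CPM in the other 10 libraries. Every one of the 10 genes had at least 653 counts in every library, but bulk counts do not show from which cells the reads came. In such bulk tissue, fewer astrocytes and less RNA per astrocyte cannot be told apart.

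Per kilobase of exon, Glul was the most abundant of the 10 genes at 458 ± 57.1 CPM per kb (SD, n = 12 mice). It was followed by Slc1a2 at 264 ± 27.9 CPM per kb and Aldoc at 256 ± 19.7 CPM per kb. Slc1a2 was above Aldoc in only 9 of the 12 libraries, and the pair differed by less than the spread between mice. S100b at 79.2 ± 7.65 and Slc1a3 at 70.1 ± 7.62 CPM per kb formed the next step, with S100b above Slc1a3 in 11 of 12 libraries. The remaining 5 genes lay close together, with Aqp4 at 22.9 ± 4.98, Gjb6 at 19.7 ± 2.72, Fgfr3 at 19.3 ± 1.11, Aldh1l1 at 18.8 ± 3.25 and Gja1 at 16.7 ± 1.78 CPM per kb. Among these 5, each gene exceeded the next in only 8 or 9 of 12 libraries, so their order is not firm. Between mice, Aqp4 varied most, with a coefficient of variation of 21.8% over 12 libraries. Fgfr3 varied least, at 5.74%.

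Slc1a2 (chromosome 2, 102658659 to 102790784, plus strand; coordinates here and below are GRCm38) encodes the main glutamate carrier of the forebrain, and its counts were the highest of the 10 genes. Its level was 3333, 3956 and 3417 CPM in APP/PS1/Hras-/- males, against 3080, 3497 and 3408 CPM in APP/PS1 males. In APP/PS1/Hras-/- females it was 3123, 3846 and 2773 CPM, against 3786, 3380 and 3921 CPM in APP/PS1 females. The groups overlapped in both sexes, and the lowest level of all 12 was in APP/PS1/Hras-/- female 3. Slc1a3 (chromosome 15, 8634124 to 8710764, minus strand) encodes the second carrier, best known from Bergmann glia of the cerebellum. It stood at 669, 614.5 and 536 CPM in APP/PS1/Hras-/- males, against 530.1, 581 and 552 CPM in APP/PS1 males. In females it stood at 526, 617 and 532 CPM in APP/PS1/Hras-/- mice, against 690.1, 699.6 and 639 CPM in APP/PS1 mice. The female groups did not overlap, and the male groups did. Glul (chromosome 1, 153899944 to 153909723, plus strand) encodes the enzyme that makes glutamine from glutamate and ammonia. Its level was 1244, 1733 and 1500 CPM in APP/PS1/Hras-/- males, against 1538, 1632 and 1495 CPM in APP/PS1 males. Females had 1454, 1826 and 1260 CPM in APP/PS1/Hras-/- mice, against 1563, 1299 and 1732 CPM in APP/PS1 mice. Within each sex the knockout mice spanned the wider range, and the groups overlapped.

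Among water and gap junction genes, Aqp4 was the more variable between mice. Aqp4 (chromosome 18, 15389496 to 15410982, minus strand) was at 169.7, 158 and 99.6 CPM in APP/PS1/Hras-/- males, against 99.5, 123 and 115 CPM in APP/PS1 males. It was at 141, 140.0 and 130.0 CPM in APP/PS1/Hras-/- females, against 178, 199 and 157 CPM in APP/PS1 females. The female groups did not overlap, with every APP/PS1 female higher, while APP/PS1/Hras-/- male 3 lay among the APP/PS1 males. Gja1 (chromosome 10, 56377330 to 56402513, plus strand) was at 187, 186 and 156 CPM in APP/PS1/Hras-/- males, against 160.2, 168 and 155 CPM in APP/PS1 males. Females had 159, 193 and 139.9 CPM in APP/PS1/Hras-/- mice, against 169, 192.5 and 193 CPM in APP/PS1 mice. Gjb6 (chromosome 14, 57123303 to 57133611, minus strand) was at 42.0, 58.4 and 50.2 CPM in APP/PS1/Hras-/- males, against 56.4, 56.8 and 44.9 CPM in APP/PS1 males. Its female values were 53.6, 63.9 and 41.4 CPM in APP/PS1/Hras-/- mice, against 55.9, 48.8 and 60.2 CPM in APP/PS1 mice. For both connexins the groups overlapped in each sex, and APP/PS1/Hras-/- female 3 was the lowest of the 12 libraries.

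Metabolic genes, S100b and Fgfr3 also overlapped between genotypes in both sexes. Aldh1l1 (chromosome 6, 90486427 to 90600203, plus strand), whose product oxidises 10-formyltetrahydrofolate and which is widely used to mark astrocytes, was at 62.6, 112 and 76.2 CPM in APP/PS1/Hras-/- males, against 76.5, 84.3 and 66.1 CPM in APP/PS1 males. In females it was at 75.5, 95.7 and 95.4 CPM in APP/PS1/Hras-/- mice, against 89.5, 80.6 and 101 CPM in APP/PS1 mice. The lowest and the highest level of Aldh1l1 thus both fell in APP/PS1/Hras-/- males. Aldoc (chromosome 11, 78322968 to 78327781, plus strand), which cleaves fructose phosphates, was at 833, 861 and 755 CPM in APP/PS1/Hras-/- males, against 938, 813 and 809.5 CPM in APP/PS1 males. In females it was at 770.0, 868.5 and 734 CPM in APP/PS1/Hras-/- mice, against 929, 819 and 881 CPM in APP/PS1 mice. Aldoc had its lowest mean in APP/PS1/Hras-/- females, at 791 ± 69.7 CPM, and its highest in APP/PS1 females, at 876 ± 55.1 CPM (SD, n = 3 each). S100b (chromosome 10, 76253853 to 76261159, plus strand) lay between 100.3 and 134 CPM in APP/PS1/Hras-/- mice, with a median of 116 CPM in males and 116 CPM in females, and between 109 and 135 CPM in APP/PS1 mice. Fgfr3 (chromosome 5, 33721674 to 33737068, plus strand), the receptor gene, had the tightest values, between 127 and 141 CPM in APP/PS1/Hras-/- mice and between 128 and 155 CPM in APP/PS1 mice. Exons of Slc1a2, Aldh1l1, Glul and Fgfr3 overlap those of genes on the other strand, and the counting's strand setting is not stated in the labels.

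**Figure D1:**
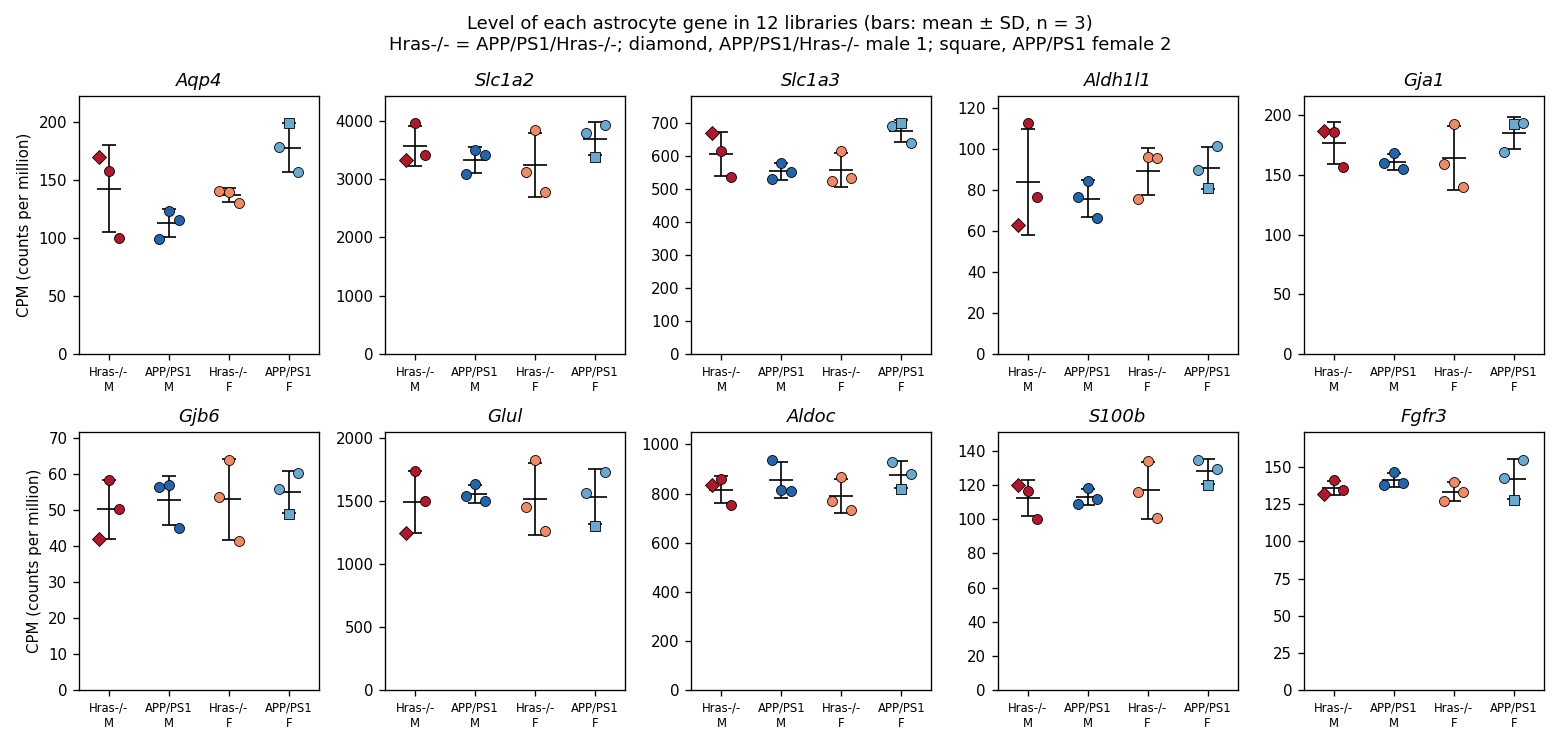
Level of each of the 10 genes in CPM (linear axis from 0) in the 4 groups, 1 point per mouse, with mean and SD (n = 3 each). The diamond is APP/PS1/Hras-/- male 1 and the square APP/PS1 female 2; for Aqp4 the 3 APP/PS1/Hras-/- females (130.0 to 141 CPM) lie below the 3 APP/PS1 females (157 to 199 CPM), and for every other gene but Slc1a3 in females the genotypes overlap within each sex.

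Across both sexes, the question was whether losing Hras altered the level of these genes. None of the 10 genes was called by edgeR's quasi-likelihood test with Benjamini-Hochberg adjustment over all genes tested; 0.0173% of those genes were called. At an unadjusted p under 0.05, 0 of 10 members passed, against 1.68% of all genes, and DESeq2 called 0 of 10 as well. Log2 differences (APP/PS1/Hras-/- over APP/PS1) ran from -0.11 for Aldoc (SE 0.067) to 0.06 for Aldh1l1 (SE 0.13), each with an adjusted p of 0.9999. Of the 10, 9 lay below zero, with a median of -0.053, beside 0.002 over all genes tested. Without APP/PS1/Hras-/- female 3, 6 of 10 lay above zero, so that count rests on 1 mouse. The intervals show what these 12 mice leave possible. For Fgfr3 the 95% interval ran from -0.19 to 0.05, and for Slc1a2 from -0.24 to 0.15. For Aqp4 it ran from -0.36 to 0.32. With RIN, the RNA integrity number, in the model, the differences were -0.19 for Aqp4 (SE 0.14), -0.16 for Slc1a3 (SE 0.081) and -0.135 for Slc1a2 (SE 0.089), and no member was called. The 2 genotypes did not separate fully for any member (0 of 10, beside 0.116% of all genes).

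Within females, all 10 genes had lower fitted levels in APP/PS1/Hras-/- mice, with a median log2 difference of -0.14 beside 0.002 over all genes. No member was called, against 0.0116% of all genes. Aqp4 averaged 137 ± 6.02 CPM in APP/PS1/Hras-/- females and 178 ± 21.0 CPM in APP/PS1 females (SD, n = 3 each), a log2 difference of -0.38 (SE 0.17, edgeR adjusted p = 0.9905). Slc1a3 averaged 558 ± 50.9 CPM and 676 ± 32.7 CPM in the same groups, a log2 difference of -0.28 (SE 0.097, edgeR adjusted p = 0.9905). These 2 genes were the only members under an unadjusted p of 0.05 (0.0415 for Aqp4 and 0.0134 for Slc1a3 by the edgeR model), where 3.81% of all genes were. They were also the 2 of 10 members whose female groups did not overlap, where 9.34% of all genes did not. Without both libraries that stood apart, the differences were -0.29 for Aqp4 and -0.25 for Slc1a3, and all 10 members stayed below zero. RIN was 8.3 to 8.5 in APP/PS1/Hras-/- females and 8.5 to 8.6 in APP/PS1 females, and with RIN in the model the differences were -0.335 for Aqp4 (SE 0.19) and -0.27 for Slc1a3 (SE 0.10). Leaving out APP/PS1 female 3 put 3 members above zero, and leaving out APP/PS1/Hras-/- female 1 or female 3 put 2 above zero.

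Within males, 5 members lay above zero and 5 below, with a median of 0.046 beside 0.006 over all genes, and none was called (0.0116% of all genes were) or had an unadjusted p under 0.05 (3.91% of all genes did). Aqp4 had the largest value, with 142 ± 37.6 CPM in APP/PS1/Hras-/- males and 113 ± 12.04 CPM in APP/PS1 males (SD, n = 3 each), a log2 difference of 0.34 (SE 0.17, edgeR adjusted p = 0.9454). That value became 0.19 without both libraries that stood apart, and 0.16 (SE 0.34) with RIN in the model. The male groups overlapped for every member, where 10.3% of all genes did not overlap. RIN was 8.6 to 8.7 in APP/PS1/Hras-/- males and 7.8 to 8.3 in APP/PS1 males, with no overlap, so in males genotype and RIN cannot be told apart.

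The difference between the sexes was tested directly as an interaction, the female effect minus the male effect. No gene of the whole table passed in edgeR (0% called), nor did any by DESeq2, and 7.21% had an unadjusted p under 0.05. Aqp4 had an interaction of -0.72 (SE 0.23, edgeR unadjusted p = 0.0100, adjusted p = 0.667), and Slc1a3 one of -0.41 (SE 0.14, edgeR unadjusted p = 0.0108, adjusted p = 0.667). These 2 were the members under an unadjusted p of 0.05. Without both libraries that stood apart the values were -0.49 for Aqp4 and -0.31 for Slc1a3. With RIN in the model they were -0.49 for Aqp4 (SE 0.43) and -0.36 for Slc1a3 (SE 0.24). Because RIN did not overlap between the male genotypes, the male part of the interaction cannot be told apart from RIN. Glul (0.04, SE 0.21) and Gjb6 (0.02, SE 0.23) had interactions near zero, which turned negative, to -0.18 each, without both libraries.

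**Figure D2:**
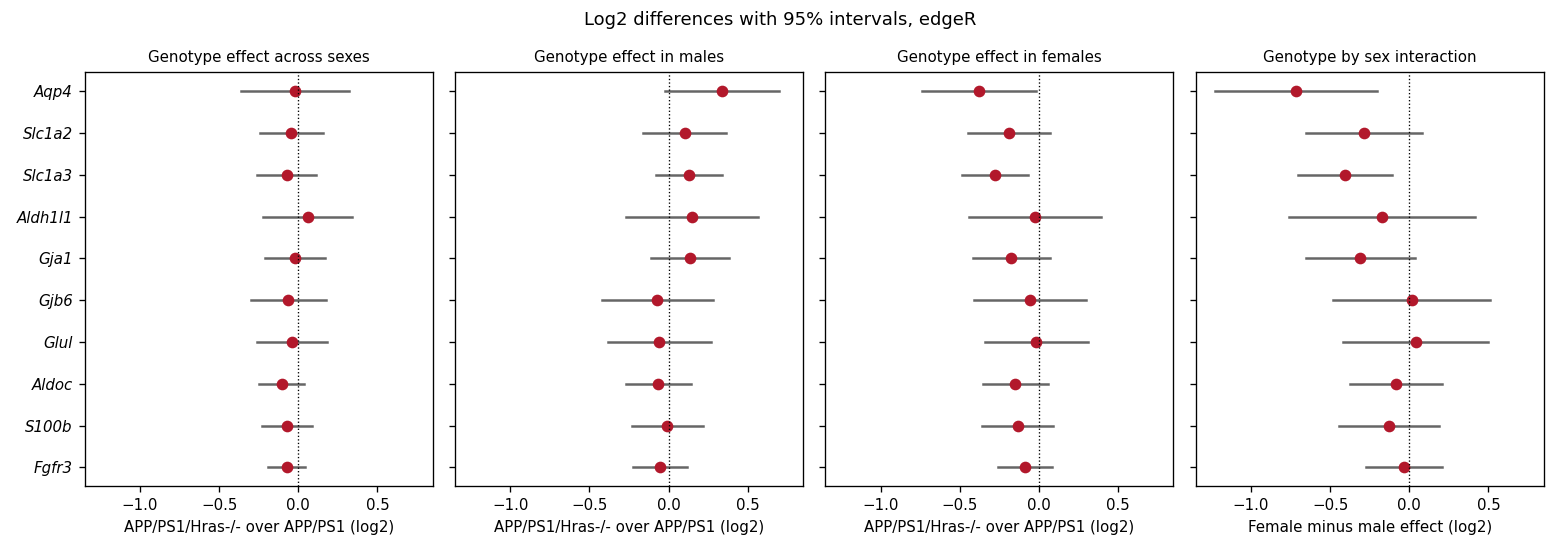
Log2 differences with 95% intervals for the 10 genes from edgeR (x axis, log2 scale, the dotted line at 0) across sexes, in males, in females, and for the difference of the female and male effects. Each interval across sexes and in males crosses 0, while those of Aqp4 and Slc1a3 lie below 0 in females and for the interaction, without an adjusted p under 0.05.

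Sex, the other labelled factor, gave log2 differences (female over male) from -0.01 for Fgfr3 to 0.30 for Aqp4 (SE 0.16, edgeR adjusted p = 0.9893), with 7 of 10 members above zero and none called, where 0.0693% of all genes were. Females averaged 158 ± 26.4 CPM of Aqp4 and males 128 ± 29.8 CPM (SD, n = 6 each), with overlapping values. The sexes overlapped for all 10 members, where 0.272% of all genes did not overlap. Among reactive astrocyte markers, all 10 of those tested lay above zero (higher fitted level in females), with a median of 0.43 beside 0.057 for the members, and 6 of them had an unadjusted p under 0.05 (4.65% of all genes did), but none was called. Gfap, the intermediate filament of reactive astrocytes, was 0.53 higher on the log2 scale in the fit (SE 0.16, edgeR adjusted p = 0.808). All 10 microglial markers also lay above zero, with a median of 0.37.

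Marker lists of other cells moved with the female comparison. Beside the 10 members below zero, 9 of 10 reactive astrocyte markers (median -0.16), 10 of 10 microglial markers (median -0.23), 7 of 7 ependymal markers (median -0.92) and 10 of 10 choroid plexus markers (median -2.12) lay below zero in females, and 8 of 10 neuronal markers lay above (median 0.15). Summed choroid plexus markers were 1061, 327 and 175 CPM in APP/PS1/Hras-/- females and 256, 4771 and 337 CPM in APP/PS1 females. That list's direction in females rests on APP/PS1 female 2: without it the mean was 521 CPM in APP/PS1/Hras-/- females and 297 CPM in APP/PS1 females. Summed levels of the 8 ependymal markers were 12.04 to 15.4 CPM in APP/PS1/Hras-/- females and 17.7 to 29.0 CPM in APP/PS1 females. Summed neuronal markers were 10940 to 11120 CPM in APP/PS1/Hras-/- females and 9292 to 10710 CPM in APP/PS1 females. Summed reactive astrocyte markers were 1340 to 1526 CPM in APP/PS1/Hras-/- females and 1501 to 1732 CPM in APP/PS1 females. Of the remaining lists in females, 9 of 10 oligodendrocyte markers lay above zero (median 0.15), and 5 of 7 precursor markers (median -0.17), 6 of 10 endothelial markers (median -0.01), 4 of 8 mural markers (median -0.02), 10 of 10 leptomeningeal markers (median -0.38), 9 of 10 striatal markers (median -0.38) and 4 of 4 red blood cell markers (median -0.91) lay below. No marker of any list was called in either sex. In males, 7 of 10 reactive astrocyte markers (median 0.11), 7 of 10 microglial markers (median 0.13), 7 of 7 ependymal markers (median 0.84) and 10 of 10 choroid plexus markers (median 1.61) lay above zero, and 7 of 10 neuronal markers lay below (median -0.12). Other lists kept their direction: in males, 9 of 10 oligodendrocyte markers lay above zero (median 0.06) and 8 of 10 striatal markers below (median -0.27). Also above zero in males were 6 of 7 precursor (median 0.17), 7 of 10 endothelial (median 0.14) and 6 of 8 mural markers (median 0.13). So were 8 of 10 leptomeningeal (median 0.2) and 3 of 4 red blood cell markers (median 0.51). Summed choroid plexus markers were 182, 991 and 734 CPM in APP/PS1/Hras-/- males and 387, 272 and 298 CPM in APP/PS1 males. The part of tissue content in the members' values was not tested.

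Several of the members' levels rose and fell together between mice. Over the 12 libraries, 43 of the 45 pairs had a positive Pearson correlation of log2 CPM, with a median r of 0.515 and a range from -0.16 to 0.90. After adjustment over the 45 pairs, 9 passed by Pearson and 9 by Spearman (two-sided permutation tests with 100000 resamples), 7 of them by both. The libraries share the scaling, and the members are all astrocyte genes. Pairs of other genes were not counted in this way, so these counts are not shown to be particular to the members. The mean of the 10 standardized levels was highest in APP/PS1 female 3 (1.06), APP/PS1/Hras-/- female 2 (0.84) and APP/PS1 female 1 (0.79). It was lowest in APP/PS1/Hras-/- female 3 (-1.14), APP/PS1/Hras-/- male 3 (-0.75) and APP/PS1/Hras-/- female 1 (-0.59), with APP/PS1 male 3 next (-0.58). High and low mice thus occurred in both genotypes, with the very lowest in APP/PS1/Hras-/-, and this mean was not tested for genotype.

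The closest pair was Gjb6 and Glul, with r = 0.904 (adjusted permutation p = 0.00315) and Spearman's rho of 0.944 (adjusted permutation p = 0.0018). Leaving out the 2 libraries farthest from the median of Gjb6 gave r = 0.807, and values centred on the 4 group means gave r = 0.922 (adjusted permutation p = 9e-04). Permutations of centred values shuffled all 12 libraries, although centring ties the values within a group. The p-values for centred values, here and below, can thus be too small. The 3 lowest libraries for Glul, APP/PS1/Hras-/- male 1 (1244 CPM), APP/PS1/Hras-/- female 3 (1260 CPM) and APP/PS1 female 2 (1299 CPM), held 42.0, 41.4 and 48.8 CPM of Gjb6. The highest for Glul, APP/PS1/Hras-/- female 2 (1826 CPM), was also the highest for Gjb6 (63.9 CPM). The same 3 libraries had the lowest summed level of mature oligodendrocyte markers, at 3703, 4052 and 3506 CPM in that order, and the same library had the highest, at 7734 CPM. The part of oligodendrocyte content in this pair was not tested. Aqp4 and Slc1a3 were the second closest pair by Pearson over 12 libraries, though not by Spearman or after centring, with r = 0.868 (adjusted permutation p = 0.00563), rho = 0.783 (adjusted permutation p = 0.0295) and r = 0.809 without the 2 libraries farthest from the median of Aqp4. Centred on group means it had r = 0.815 (adjusted permutation p = 0.0165), but rho = 0.629 did not pass (adjusted permutation p = 0.0983). Without the 2 libraries farthest from the median of the centred Aqp4 values, r was 0.604. Across these pairs there was little relation: Aqp4 and Glul had r = -0.16, and Slc1a3 and Glul r = 0.01. S100b joined Slc1a3 (r = 0.748, adjusted permutation p = 0.0366) and Gja1 (r = 0.752, adjusted permutation p = 0.0366), and Fgfr3 joined Glul (r = 0.732, adjusted permutation p = 0.0366; without both libraries that stood apart, r = 0.642 and adjusted permutation p = 0.0908). Slc1a3 also passed with Gja1 (r = 0.786, adjusted permutation p = 0.0366). Slc1a2 passed with Glul (r = 0.750, adjusted permutation p = 0.0366), Gja1 (r = 0.738, adjusted permutation p = 0.0366) and S100b (r = 0.718, adjusted permutation p = 0.04215). By Spearman, of these pairs of Slc1a2, only that with Glul passed. Without both libraries that stood apart, Slc1a3 with Gja1 (Pearson adjusted permutation p = 0.0633) and Slc1a2 with S100b (0.0560) did not pass. Centred on group means, Slc1a3 with Gja1 (Pearson adjusted permutation p = 0.0512) and Slc1a2 with Gja1 (0.0737) did not pass. The mean r of Slc1a2 to the other members, 0.607, was the highest of any member. Aldh1l1 and Aldoc passed with no other member by Pearson.

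The 2 libraries that stood apart were where the members parted. Counted from the highest of the 12 libraries, Aqp4 ranked 3 in APP/PS1/Hras-/- male 1 and 1 in APP/PS1 female 2. Slc1a3 held the same ranks, and Gja1 ranked 4 in APP/PS1/Hras-/- male 1 and 3 in APP/PS1 female 2. In contrast, Glul ranked 12 in APP/PS1/Hras-/- male 1 and 10 in APP/PS1 female 2. Gjb6 ranked 11 and 9 in this order of libraries, Fgfr3 10 and 11, and Aldh1l1 12 and 7. Relative to the mean of the other 10 libraries, Aqp4 was 1.27-fold in APP/PS1/Hras-/- male 1 and 1.48-fold in APP/PS1 female 2, and Glul 0.791-fold and 0.826-fold in the same libraries. Choroid plexus markers, summed, were low in APP/PS1/Hras-/- male 1 (182 CPM) and high in APP/PS1 female 2 (4771 CPM). Ependymal markers summed to 17.5 CPM in APP/PS1/Hras-/- male 1 and 29.0 CPM in APP/PS1 female 2, with 7.91 to 21.2 CPM in the others. Striatal markers summed to 813 CPM in APP/PS1/Hras-/- male 1 and 717 CPM in APP/PS1 female 2, with 265 to 1007 CPM in the others. Mature oligodendrocyte markers summed to 3703 CPM in APP/PS1/Hras-/- male 1 and 3506 CPM in APP/PS1 female 2, the lowest of the 12 libraries, with 4052 to 7734 CPM in the others. RIN was 8.6 in APP/PS1/Hras-/- male 1, with 8.7 in the other two of its group, and 8.5 in APP/PS1 female 2, with 8.5 and 8.6 in the other two of its group. The part of any of these in the members' levels was not tested.

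With both left out, an alternative added after seeing the data, all 45 correlations were positive over 10 libraries, with a median r of 0.638 and a range from 0.242 to 0.961. Again 9 pairs passed by Pearson, and 6 of these had passed over 12 libraries. Gja1 and Glul became the closest pair, at r = 0.961 (adjusted permutation p = 0.00135) where 12 libraries gave r = 0.362. Gja1 and Gjb6, the 2 connexins, reached r = 0.897 (adjusted permutation p = 0.00465) where 12 libraries gave 0.473. Gjb6 and Glul held at r = 0.899 (adjusted permutation p = 0.00315). Aqp4 and Slc1a3 had r = 0.796 (adjusted permutation p = 0.0363; Spearman adjusted permutation p = 0.0915). No member correlated with RIN past the threshold over 12 libraries; the highest was Aqp4 at r = 0.530 and rho = 0.531 (adjusted permutation p = 0.472 and 0.705), which dropped to r = 0.18 without the 2 libraries farthest from the median.

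**Figure D3:**
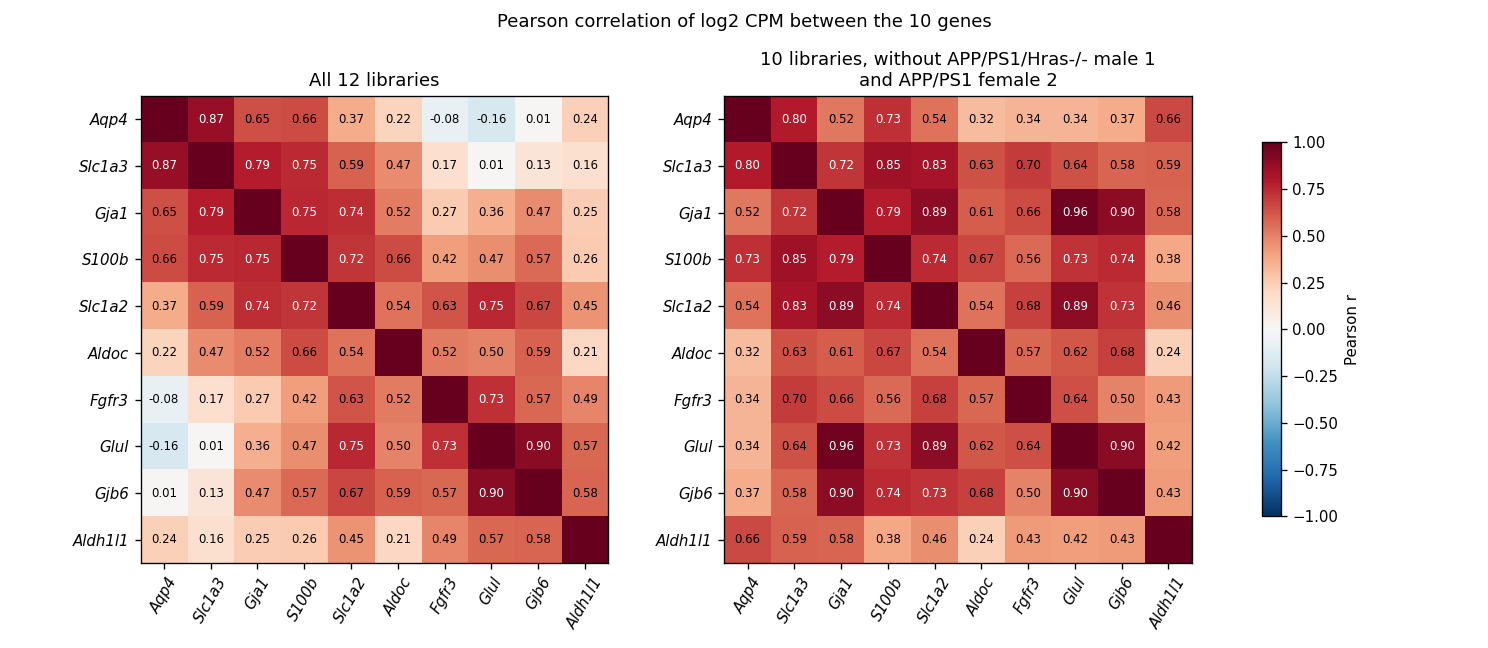
Pearson correlation of log2 CPM for each pair of the 10 genes, over all 12 libraries (left) and over 10 libraries without APP/PS1/Hras-/- male 1 and APP/PS1 female 2 (right), with red for positive r and blue for negative r. The cells of Aqp4 and Slc1a3 with Glul, Gjb6 and Fgfr3 are pale on the left and darker on the right. The lowest r of any pair on the right is 0.242, that of Aldh1l1 and Aldoc.

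**Figure D4:**
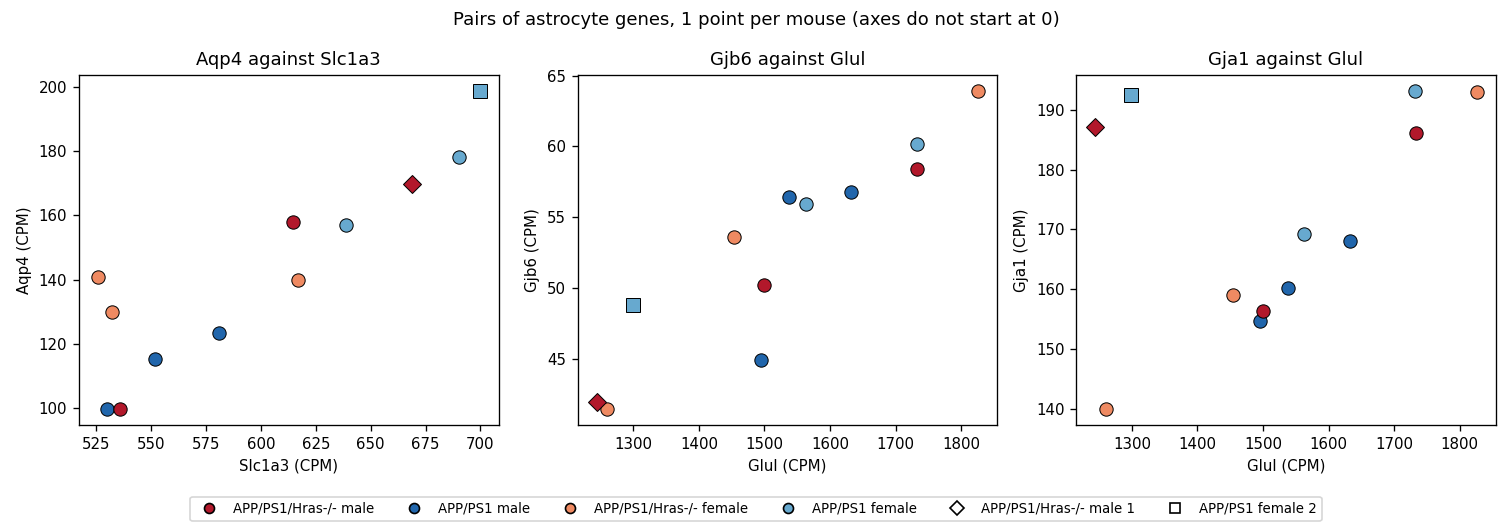
CPM of 3 pairs of genes, 1 point per mouse (axes do not start at 0). In the third panel APP/PS1/Hras-/- male 1 and APP/PS1 female 2 lie at the upper left, with 187 and 192.5 CPM of Gja1 at 1244 and 1299 CPM of Glul, away from the line of the other 10 mice.

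Ratios within a library do not depend on the scaling. Slc1a2 over Slc1a3, the ratio of the glutamate carriers, averaged 2.55 ± 0.16 on the log2 scale in APP/PS1/Hras-/- mice and 2.52 ± 0.14 in APP/PS1 mice (SD, n = 6 each), a difference of 0.03 (two-sided exact permutation p = 0.738, adjusted over both ratios 0.738). Gja1 over Gjb6, the ratio of the connexins, averaged 1.73 ± 0.22 in APP/PS1/Hras-/- mice and 1.69 ± 0.17 in APP/PS1 mice (SD, n = 6 each), a difference of 0.05 (two-sided exact permutation p = 0.684, adjusted 0.738). The highest connexin ratios of the 12, 4.46 and 3.95 as plain ratios, were in APP/PS1/Hras-/- male 1 and APP/PS1 female 2, which also had the lowest carrier ratios, 4.98 and 4.83. The other 10 libraries had connexin ratios from 2.84 to 3.44 and carrier ratios from 5.21 to 6.44. Within a sex, 3 mice against 3 allow no p under 0.1, and none of the 4 ratios within a sex came near it (lowest exact permutation p = 0.4 in males and 0.5 in females).

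Related genes set the members in their families. By level per length over 12 mice, Aldoa, the ubiquitous aldolase, stood at 504 ± 43.1 CPM per kb, above Aldoc. Slc1a4, a neutral amino acid carrier, stood at 19.9 ± 2.32 CPM per kb and Slc1a1, the neuronal glutamate carrier, at 14.3 ± 0.80 CPM per kb, both below Slc1a3. Gjc3, a connexin of oligodendrocytes in mice, stood at 14.1 ± 2.93 CPM per kb, near Gja1, and Gjb2 and Gjb1 were lower at 3.99 ± 0.84 and 6.78 ± 1.89 CPM per kb. S100a1 reached 60.4 ± 7.40 CPM per kb and S100a16 30.6 ± 2.77 CPM per kb, both below S100b. Fgfr1 and Fgfr2 stood at 8.04 ± 0.86 and 5.15 ± 0.85 CPM per kb, below Fgfr3. Aqp11 was the next water channel after Aqp4, at 1.77 ± 0.22 CPM per kb. Aqp1, a water channel of choroid plexus, averaged 1.18 ± 1.97 CPM per kb, a mean that rests on APP/PS1 female 2 at 7.21 CPM per kb; without it, the average was 0.627 ± 0.519 CPM per kb (SD, n = 11). Of the 22 related genes tested, none was called for genotype across sexes, where 13 lay above zero and 9 below (median 0.008). The 1 of 22 with an unadjusted p under 0.05 in females, where 3.81% of all genes had one, was S100a16, at -0.21 (SE 0.096, edgeR adjusted p = 0.9905). In males it was S100a10, at 0.445 (SE 0.20, edgeR adjusted p = 0.9454), where 3.91% of all genes had one. For the interaction it was Aldh1l2, at -0.864 (SE 0.38, edgeR adjusted p = 0.6672), where 7.21% of all genes had one.

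Wider lists for the same functions gave no call in any comparison. Of 15 genes of amino acid uptake and the glutamate-glutamine cycle, 5 lay above zero and 10 below across sexes (median -0.008). The smallest p there was that of Slc25a18, a mitochondrial glutamate carrier, at -0.15 (SE 0.058, edgeR adjusted p = 0.9999), followed by Slc7a10, a carrier for D-serine and glycine, at -0.18 (SE 0.098). In females, Got2, the mitochondrial aspartate aminotransferase, had 0.24 (SE 0.081). Of 16 genes of potassium, water and bicarbonate transport and endfoot anchoring, 5 lay above and 11 below (median -0.012). Among them, Lrrc8a, a volume-regulated anion channel subunit, had -0.11 (SE 0.11). Of 18 genes of glycogen, lactate, serine, one-carbon and fatty acid metabolism, 7 lay above and 11 below (median -0.017), led by Psph, the last enzyme of serine synthesis, at 0.22 (SE 0.102), and Slc16a1, a lactate carrier, at 0.17 (SE 0.097).

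Of 15 fibroblast growth factor ligands, co-receptors and adaptors, 6 lay above zero and 9 below across sexes (median -0.043). Sdc4, a heparan sulfate co-receptor, had -0.13 (SE 0.077), and Fgf10 had 0.20 (SE 0.145). Fgf9, a ligand of Fgfr3, had 0.37 in females (SE 0.12) and -0.26 in males (SE 0.12), with an interaction of 0.63 (SE 0.17, edgeR adjusted p = 0.667). Of 19 transcription factors and surface genes of astrocytes, 5 lay above zero and 14 below across sexes (median -0.043). In females 18 of these 19 lay below zero (median -0.16), and in males 14 lay above (median 0.099). The smallest p in females were those of Id4, a regulator of transcription factors, at -0.42 (SE 0.12, edgeR adjusted p = 0.9905), and Ednrb, an endothelin receptor, at -0.46 (SE 0.14, edgeR adjusted p = 0.9905). This list thus leaned in females as the members did, with no gene called in either.

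Aldh1l1 lies on chromosome 6, and of its 105 tested neighbours within 5 Mb 0 were called across sexes and 6 had an unadjusted p under 0.05 (5.71%, where 1.68% of all genes did), with a median log2 difference of -0.009. Genes with the profile most like the mean of the members were Acer3, an alkaline ceramidase (r = 0.922), Hadh, an enzyme of fatty acid oxidation (r = 0.911), Mavs, an adaptor of antiviral signalling (r = 0.902), Gm6145 (r = 0.890), Chpt1, an enzyme of phosphatidylcholine synthesis (r = 0.888), and Resf1 (r = 0.880). These were the 6 highest of 12094 genes that averaged 5 CPM or more, over 12 libraries that differed in total counts and in tissue markers. The part of either in this likeness was not tested.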

How the data were processed

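Libraries were made from total RNA of frontal cortex with the TruSeq Stranded mRNA workflow, per the labels' protocols. The deposited table holds counts per gene and library without normalization, and per the submitters' processing notes the tools included HISAT2 2.1.0, featureCounts, Trimmomatic 0.33 and FastQC 0.11.7, and the builds mm10 and mm9, without roles or order. The labels state neither strand setting nor annotation release. Gene identifiers were matched to GENCODE M21; 37 of 54532 had no match (0.0099% of counts). The edgeR 4.0.16 filter filterByExpr left 17307 of 31149 genes with a count. Tests were edgeR's robust quasi-likelihood F tests with TMM scaling in R 4.3.3, Benjamini-Hochberg adjusted over all genes tested, with a threshold of 0.05. The effects across sexes and of sex came from a model of sex and genotype, the others from 4 group means over all 12 libraries. Each SE was derived as the absolute log2 difference over the square root of the F value. Intervals of 95% use these SEs and the t quantile of the fit. Correlations used log2 CPM with a prior count of 2. The scripts were tested on simulated data. Alternatives were RLE scaling, library totals alone, DESeq2 1.42.0, no filter on low counts, RIN as a covariate, a prior count of 0.5, centring on group means, and libraries left out. The members, lists and rules were chosen with earlier results of these data known. Named genes were the members, their related genes, up to 2 genes of each other list with the smallest p, and the 6 genes most like the members' mean; several such list genes are covered by their counts alone, and a result for a gene under this rule is not reported here. Each list's result stands with the comparisons.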

Additional observations from a re-analysis of the deposited data

How the results depend on the processing

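No member was called under any alternative in any comparison. The count of all genes called moved from 3 across sexes to 7 with DESeq2 and 5 without a filter, from 2 in males to 4 with DESeq2, from 2 in females to 5 with DESeq2 and 4 without a filter, and from 12 for sex to 27 with DESeq2 and to between 9 and 20 with 1 library left out (20 without APP/PS1/Hras-/- male 2). No paired analysis was possible because the labels give no replicate numbers and the numbers used here follow sample order. Log2 differences of members that were uncalled changed sign as follows, and the cause was not tested. With RIN as a covariate, males had -0.15 for Slc1a2 and 0.11 for Aldoc, females 0.02 for Glul, the interaction 0.023 for Slc1a2, 0.014 for S100b and 0.005 for Fgfr3, and sex -0.027 for Slc1a2. With library totals alone, the interaction was -0.011 for Gjb6, and sex gave 0.005 for Glul and 0.003 for Aldoc. Without both libraries that stood apart, males had 0.045 for Gjb6 and 0.06 for Glul, the interaction was -0.179 for Gjb6 and -0.181 for Glul, sex gave 0.02 for Aldoc and 0.006 for Fgfr3, and the Slc1a2 over Slc1a3 ratio gave 0.095 in males and -0.006 in females. With 1 library left out in turn, the ranges across sexes were -0.124 to 0.053 for Aqp4, -0.093 to 0.019 for Slc1a2, -0.067 to 0.127 for Aldh1l1, -0.06 to 0.044 for Gja1, -0.132 to 0.005 for Gjb6 and -0.109 to 0.015 for Glul. In males they were -0.124 to 0.319 for Aldh1l1, -0.193 to 0.045 for Gjb6, -0.179 to 0.058 for Glul, -0.104 to 0.008 for Aldoc and -0.058 to 0.058 for S100b. In females they were -0.102 to 0.079 for Aldh1l1, -0.209 to 0.097 for Gjb6 and -0.172 to 0.1 for Glul. For the interaction they were -0.346 to 0.1 for Aldh1l1, -0.14 to 0.167 for Gjb6, -0.114 to 0.163 for Glul and -0.102 to 0.041 for Fgfr3. For sex they were -0.039 to 0.066 for Slc1a2, -0.004 to 0.131 for Gjb6, -0.076 to 0.048 for Glul, -0.033 to 0.023 for Aldoc and -0.047 to 0.018 for Fgfr3. The Slc1a2 over Slc1a3 ratio ranged from -0.021 to 0.073 across sexes, -0.09 to 0.095 in males and -0.006 to 0.167 in females, and the Gja1 over Gjb6 ratio from -0.039 to 0.105 across sexes. Each member had at least 653 counts in every library.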
